A study of Parasteatoda tepidariorum with 16 samples.

Results

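Central cells (c cells) of the germ disc of the spider *Parasteatoda tepidariorum* were compared between stage 3 and stage 4, using the raw counts of 4 of the 16 libraries of the series. Of the 27990 gene models in the count file, 10686 had at least 1 CPM (counts scaled to the library total, per 1e6) in at least 1 of these 4 libraries, and these genes were tested. Stage-3 c cells (libraries c1 and c2) came from embryos at about 20 h after egg laying (AEL), all laid by mother T1459. Stage-4 c cells (c1 and c2) came from embryos at 28 to 29 h AEL, all laid by mother SN474. All embryos were untreated wild-type offspring of the Osaka isolate kept at 25 °C, and each library was made from a small pool of cells drawn by glass capillary. Stage and mother changed together, so that a difference between stages and a difference between mothers cannot be told apart in these libraries. The other 12 libraries were of intermediate (i) and peripheral (p) cells at stage 3, p cells at stage 4, and c and p cells at early stage 5, and they were used only to show levels outside the comparison. The series' own description calls the libraries of a group biological replicates without saying whether they came from separate embryos, so that p-values measure the spread between these samples only.

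In this spider the germ disc begins to form at stage 3, when cells become denser on the future embryonic side of the egg, and a blastopore forms at its centre. Cells at the centre move inwards and give rise to the cumulus, a migrating group of cells that sets the dorsoventral axis, and to central endoderm, whereas the rim of the disc expresses head genes. In animal embryos of this age, transcripts loaded by the mother are removed while the embryo's own genome is switched on.

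Total counts on genes were 10475807 and 8518352 in the stage-3 libraries and 7228412 and 10045889 in the stage-4 libraries. A gene at 0 could have had up to 3 counts, which is 0.264 to 0.430 CPM depending on the library, a limit that covers counting error only, as reads copied by PCR and not tagged per molecule are not independent. Replicates of these small samples were far apart: of the genes with at least 10 CPM in one stage-3 library, 36.1% had at most 3 counts in the other or the reverse, and the share was 28.7% at stage 4. The 5 pole markers were *g4238*, *g14287*, *g16467*, *g16926* and *g6985* (*Pt-fkh*, a forkhead gene). The paper also detected *Pt-fkh* along the rim of the germ disc at stage 4 and early stage 5, so that it does not mark the pole alone. Together the 5 stood at 1266 and 2480 CPM at stage 3 and at 2794 and 762 CPM at stage 4. On the scale of all 16 libraries their sum was at most 8.06 CPM in stage-3 i and p cells. The stage-3 values come from Group C genes, which the study chose for being high in these c libraries, so that they are no check of the stage-3 label. At stage 4 the sums on that scale were 2888 and 799 CPM in c cells against 34.4 and 163.5 CPM in p cells. The 4 markers of the abembryonic side of the egg, which are also endoderm genes, summed to 961.5 and 1962 CPM at stage 3 and to 3781 and 1886 CPM at stage 4. The paper detected *g26874* and *g20850* among them at the embryonic pole as well. On the scale of all 16 libraries their sum was 941 and 1970 CPM in stage-3 c cells. It was 0 CPM in stage-3 i cells and 48.7 to 73.3 CPM in stage-3 p cells. The study chose *g20850* (Group C) and *g26874* (Group CP, high in c and p cells) from these same stage-3 libraries. These stage-3 levels are thus partly set by that choice. As both genes were also detected at the pole, the sum is no measure of cells from another region. The 5 rim markers summed to 397 and 494 CPM at stage 3 and to 97.8 and 131.6 CPM at stage 4. On the scale of all 16 libraries the rim sum was 388.5 and 496.4 CPM in stage-3 c cells. In stage-3 p cells it was 602.5, 525.5 and 232.1 CPM, so that it did not separate these regions at stage 3. The 3 measured products named vitellogenin, a yolk protein, summed to 68.1 and 137 CPM and then to 72.8 and 4.96 CPM. Thus these marker sums differed between single libraries as well as between stages. In bulk samples fewer cells of a type and less RNA per cell cannot be told apart.

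In all, 441 genes (4.13% of those tested) passed the threshold of 0.05 after Benjamini-Hochberg adjustment in edgeR's quasi-likelihood test. Of these DEGs, 240 were higher at stage 4 (2.25%) and 201 were lower (1.88%). The lower genes had moved further, with a median size of 3.55 on the log2 scale against 2.19 for the higher genes, and 86 of them differed by more than 16-fold against 51 of the higher ones. Calls were concentrated in abundant genes: below a mean of 10 CPM 3707 genes were tested and none passed, whereas 49.1% of the 159 genes above 1000 CPM did, 70 higher and 8 lower. That none passed in the lowest class does not show that none changed. In all, 435 of the DEGs had no overlap between the libraries of the stages, while without any test 18.4% of all genes had both stage-4 libraries above both stage-3 libraries and 20.2% had them below. At an unadjusted p under 0.05 there were 697 higher and 676 lower genes.

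**Figure D1:**
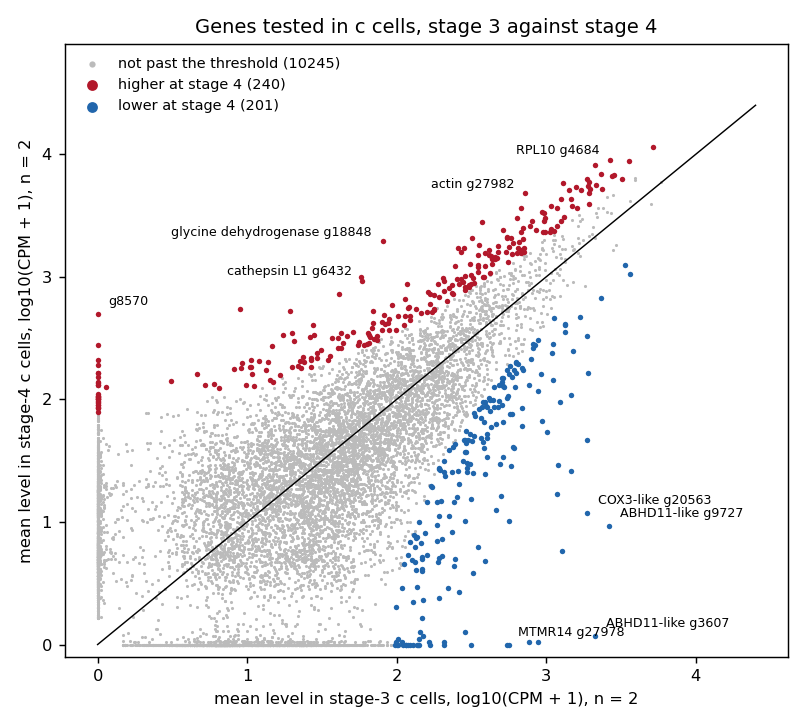
Mean level of each gene tested in stage-3 c cells (x axis) and stage-4 c cells (y axis), as log10(CPM + 1), n = 2 libraries each. Red points are the 240 genes higher and blue points the 201 genes lower at stage 4 in edgeR's quasi-likelihood test, grey points are the 10245 others, the line marks equal levels, and the blue points along the x axis are genes with almost no counts left at stage 4.

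The number of DEGs depended strongly on the test and on single libraries. The likelihood ratio test of edgeR called 145 genes and DESeq2 called 999, of which 116 and 378 were among the 441. Without stage-3 c1 only 29 genes remained past the threshold (2 higher, 27 lower), without stage-3 c2 118, without stage-4 c1 106 and without stage-4 c2 110. With library sizes alone in place of TMM normalization, 38.9% of the DEGs were higher in place of 54.4%, and the median log2 change over all genes moved from -0.07 to -0.33, so that directions below are relative to the TMM scale. That median was 1.05 without stage-3 c1 and -0.94 without stage-4 c2. The medians of many lists moved as well, but not always in the same direction. For the cytosolic ribosomal proteins the median was 1.72 in the main fit and 1.54 without stage-3 c1. Of the 99 DEGs that the naming rule picked, 17 were called in each alternative run, among them 5 ABHD11 genes, *g18848* and *g20563*, and each of the others was not called in at least 1 of them.

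The clearest losses were in genes annotated as ABHD11 or ABHD11-like. ABHD11 is an alpha/beta-hydrolase that sits in mitochondria in mammals, and its role in spider eggs is not known from these files. The file holds 49 gene models of this name, of which 15 were tested. Of these, 6 fell (1.88% of all genes fell), 9 did not pass, and none rose past the threshold. The family was singled out for its DEGs after the values were seen, so that these counts are a description and no test. *g9727* (scaffold 1062 of the assembly Ptep_1.0, positions 293368 to 300714) was measured at 2726 and 2551 CPM at stage 3 and at 10.9 and 5.65 CPM at stage 4. Its level fell 319-fold (log2 change -8.36, standard error 0.64, adjusted p = 6.97e-35 in edgeR's quasi-likelihood test), with no overlap between stages. *g3607* (scaffold 488) stood at 2474 and 1795 CPM at stage 3, and its stage-4 libraries held 0 and 3 counts (adjusted p = 2.19e-32). Both were abundant transcripts at stage 3 that had all but gone at stage 4.

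Its neighbours on scaffold 1062 behaved alike. *g9728* stood at 376 and 755 CPM and then had no count in either stage-4 library, which makes it at least 1458-fold lower against a floor of 3 counts in each library (adjusted p = 1.03e-10). *g9729* went from 936 and 818 CPM to 0 and 1 counts (adjusted p = 9.21e-16). *g9725*, further along the same scaffold, went from 77.0 and 115 CPM to no count, at least 247-fold lower (adjusted p = 0.0383). *g9723* and *g9726* on this scaffold were also at 0 or 1 counts at stage 4 in both libraries, but their stage-3 levels (24.4 and 5.31 CPM, and 10.9 and 42.6 CPM) were too low for the change to pass. Elsewhere, *g23929* on scaffold 71 went from 636 and 890.0 CPM to 0 and 1 counts (adjusted p = 5.69e-14). Among the 9 that did not pass, *g25958* on scaffold 130, named ABHD11 without a suffix, was abundant at both stages. It was measured at 1489 and 1851 CPM and then at 1517 and 1447 CPM, with overlapping stages (log2 change -0.17, standard error 0.34, adjusted p = 0.817). Others were measured at stage 4 alone: *g5875* on scaffold 697 had no count at stage 3 and was at 11.6 and 36.1 CPM at stage 4 (adjusted p = 0.499), and *g13965*, *g5878*, *g1635* and *g5876* also had no count at stage 3 and at most 14.3 CPM in a stage-4 library. Since the authors kept only alignments that were unique in the genome, reads shared by near-identical copies could have been dropped or split, and levels of single copies are uncertain. Summed over the family, the level was 8569 and 8859 CPM in stage-3 c cells against 1606 and 1592 CPM in stage-4 c cells on the scale of all 16 libraries. In all 6 genes that fell, both stage-4 libraries were below both stage-3 libraries, as in all 201 DEGs that fell. For 5 of them the call held in each alternative run, and the call of *g9725* was not followed through those runs.

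The remaining genes with the lowest p among those that fell were of mixed kinds. *g20563*, annotated as cytochrome c oxidase subunit 3-like, a respiratory chain subunit that animals normally encode in the mitochondrial genome, was at 1833 and 1901 CPM and then at 21.4 and 0.115 CPM (log2 change -7.59, standard error 0.67, adjusted p = 3.82e-26). Both stage-4 libraries were lower, but they differed widely from each other, and the level was back at 2462 CPM in early stage-5 c cells of another mother. *g27978*, myotubularin-related protein 14, a phosphoinositide phosphatase in vertebrates, was at 649 and 445 CPM and then at 0 counts in both libraries, at least 1410-fold lower (adjusted p = 1.66e-10). *g6237*, zinc finger protein 1-like, a probable DNA-binding protein by its name, was at 1415 and 943 CPM and then at 0 and 31.6 CPM (log2 change -6.09, standard error 0.67, adjusted p = 1.62e-16). The 2 stage-4 libraries thus differed in how complete this loss was.

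*g6760* is annotated as acetylcholinesterase-1-like, the enzyme that breaks down acetylcholine. It was at 1338 and 1591 CPM and then at 123 and 91.8 CPM, 13.6-fold lower (log2 change -3.78, standard error 0.49, adjusted p = 6.5e-12). *g4041*, named after futsch, a microtubule-associated protein of *Drosophila* neurons, went from 1569 and 914 CPM to 120.2 and 68.7 CPM, 13.1-fold lower (adjusted p = 1.2e-10). *g3232*, the bifunctional enzyme that makes and breaks down fructose-2,6-bisphosphate, a regulator of glycolysis, went from 969 and 1046 CPM to 79.9 and 27.5 CPM, 18.8-fold lower (adjusted p = 9.77e-11). In each of these genes both stage-3 libraries were far above both stage-4 libraries. The stage-3 libraries differed most from each other in *g4041* and the stage-4 libraries in *g3232*. *g4779*, filamin A-interacting protein 1-like, went from 1050 and 819 CPM to 44.9 and 85.7 CPM (adjusted p = 5.04e-09), and the 3 gene models without a product that follow it on scaffold 591 (*g4780*, *g4781* and *g4782*) fell as well, for example *g4780* from 1835 and 1913 CPM to 304 and 353 CPM (adjusted p = 1.49e-07). Adjacent models without a product can be parts of 1 transcript, which these counts cannot show.

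**Figure D2:**
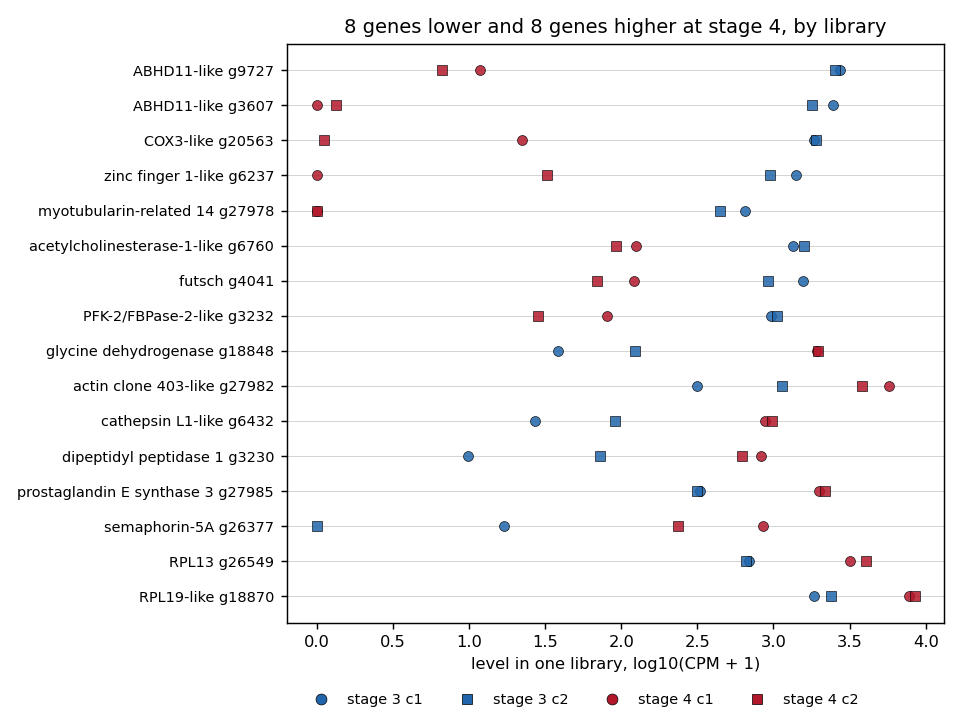
Level of 16 genes with a low p in each of the 4 libraries, as log10(CPM + 1). Circles are c1 and squares c2 libraries, blue is stage 3 and red stage 4. In the upper 8 genes both red points lie to the left of both blue points and in the lower 8 to the right, and the distance between replicates is largest for genes near 0 in one library.

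Among the genes that rose, glycine dehydrogenase (*g18848*), the subunit of the glycine cleavage system that decarboxylates glycine, had the lowest p. It was at 37.4 and 122 CPM at stage 3 and at 1933 and 1958 CPM at stage 4, 24.4-fold higher (log2 change 4.65, standard error 0.47, adjusted p = 2.16e-19). The stage-4 replicates agreed closely, and both were above either stage-3 library. An actin gene (*g27982*), encoding a filament protein of the cytoskeleton, was at 315 and 1129 CPM and then at 5774 and 3816 CPM, 6.64-fold higher (log2 change 2.74, standard error 0.32, adjusted p = 2.68e-14). The spread within stage 3 was wide here, with c2 well above c1. Prostaglandin E synthase 3 (*g27985*), whose vertebrate counterpart p23 is a co-chaperone of Hsp90, was at 328 and 312 CPM and then at 1986 and 2188 CPM, 6.52-fold higher (adjusted p = 2.45e-09).

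Lysosomes are the compartment in which cells digest proteins such as yolk. In the list of yolk, lysosome and endocytic genes, 5 of 78 tested rose (2.25% of all genes rose) and none fell past the threshold, with a median log2 change of 0.83 against -0.07 for all genes. The 5 were 4 cathepsins and a proton pump subunit. *g6432*, cathepsin L1-like, a lysosomal cysteine protease, was at 26.2 and 89.8 CPM and then at 875 and 983 CPM, 16-fold higher (log2 change 4.05, standard error 0.56, adjusted p = 2.47e-10). *g9137*, a second cathepsin L1-like gene, was at 0 and 50.7 CPM and then at 272 and 377 CPM (adjusted p = 0.000183). *g398*, cathepsin L1, was at 567 and 742 CPM and then at 2306 and 1552 CPM, 2.95-fold higher (adjusted p = 0.00146). All 3 were higher in both stage-4 libraries, and all 3 were also higher in stage-3 c2 than in c1. *g13754*, cathepsin B-like, another lysosomal protease, went from 141 and 126 CPM to 582 and 509 CPM (adjusted p = 0.00706). *g14276*, subunit E of the V-type proton ATPase that acidifies lysosomes, went from 10.0 and 0 CPM to 182 and 85.4 CPM (adjusted p = 0.0175). Dipeptidyl peptidase 1 (*g3230*), also known as cathepsin C, is not on the list by its name and went from 8.89 and 71.3 CPM to 826 and 616 CPM, 18.0-fold higher (adjusted p = 4.4e-09). The summed abembryonic markers, given above, overlapped between the stages, with stage-4 c2 below stage-3 c2. The summed late endoderm genes, given below, were higher in both stage-4 libraries. The part of these marker genes in the result was not tested. Without stage-3 c1 none of the 5 passed, and without stage-4 c1 1 did.

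The largest group to rise was that of the cytosolic ribosomal proteins, the protein parts of the ribosome. Of 80 genes tested, 54 rose, which is 67.5% against 2.25% of all genes, and none fell past the threshold. The share over all genes takes in 3707 genes under a mean of 10 CPM, of which none passed, while 70 of the 159 above 1000 CPM rose. It is thus no share of genes at a like level. The median log2 change of the ribosomal protein genes was 1.72, and 79 of the 80 values were above 0. Together they made up 4.50% and 5.72% of all counts in stage-3 c cells and 12.8% and 14.1% in stage-4 c cells. *g26549*, which encodes large-subunit protein L13, was at 691 and 658 CPM and then at 3202 and 4021 CPM, 5.36-fold higher (log2 change 2.42, standard error 0.34, adjusted p = 3.3e-10). *g983*, small-subunit protein S24-like, was at 1009 and 1564 CPM and then at 5619 and 6104 CPM, 4.56-fold higher (log2 change 2.19, standard error 0.30, adjusted p = 1.06e-10). *g18870*, L19-like, was at 1838 and 2402 CPM and then at 7794 and 8440 CPM, 3.83-fold higher (adjusted p = 5.18e-10). The replicates of a stage lay close together in these genes, and the stages did not overlap. *g26992*, L18, had the narrowest replicates of those named, at 636 and 642 CPM and then at 3034 and 2981 CPM (adjusted p = 4.05e-08), and *g1382*, S13, went from 259 and 302 CPM to 1510 and 1952 CPM, 6.17-fold higher (adjusted p = 4.4e-08). *g4684*, L10-like, went from 2300 and 3045 CPM to 7957 and 10141 CPM (adjusted p = 7.91e-09). The median moved little between settings (1.44 with library sizes alone, and 1.5 to 2 with a library left out), but the calls did not hold: the likelihood ratio test called none of the 80 and DESeq2 56, and 0, 10, 37 and 16 passed without stage-3 c1, stage-3 c2, stage-4 c1 and stage-4 c2.

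Of 69 mitochondrial ribosomal proteins tested, none passed in edgeR's quasi-likelihood test (3 higher and 1 lower at an unadjusted p under 0.05, and 3 higher and 1 lower in DESeq2), with a median log2 change of 0.30, which was 6.08 without stage-3 c1 and -0.42 without stage-4 c2. Translation factors and tRNA ligases rose in 7 of 85 genes (8.24% against 2.25% of all genes) and fell in none, with a median of 0.90. *g7674*, eukaryotic translation initiation factor 5, which helps to select the start codon, was at 458 and 626 CPM and then at 1958 and 2180 CPM, 3.82-fold higher (log2 change 1.94, standard error 0.37, adjusted p = 2.64e-05). *g2253*, the RNA helicase eIF4A, was at 1165 and 1207 CPM and then at 3337 and 4018 CPM, 3.1-fold higher (adjusted p = 3.68e-05). Elongation factor 1-alpha (*g27264*), which brings tRNAs to the ribosome, went from 2937 and 2698 CPM to 5878 and 7719 CPM, and elongation factor 2 (*g11106*), which moves the ribosome along, from 2970 and 2571 CPM to 5913 and 7477 CPM (adjusted p = 0.000249 and 0.000258). All 4 were higher in both stage-4 libraries, yet none of the list passed without stage-3 c1 or without stage-3 c2, or in the likelihood ratio test.

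**Figure D3:**
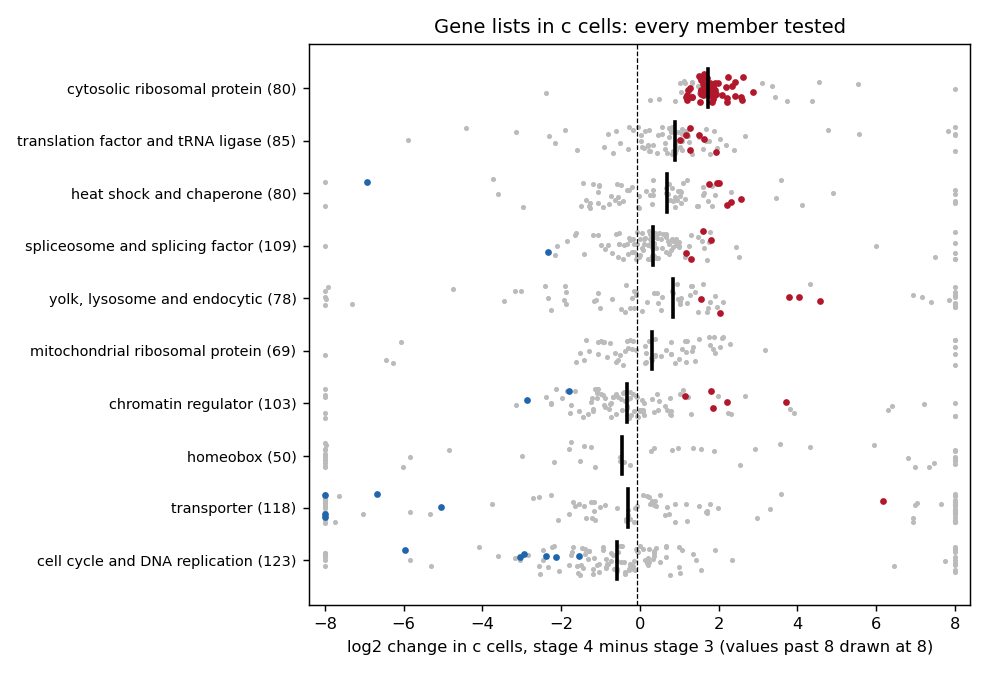
Log2 change from stage 3 to stage 4 in c cells for every tested member of 10 gene lists, with the number of members in parentheses. Red points passed the test as higher and blue as lower, the black bar is the median of the list, and the dashed line is the median of all genes tested (-0.07). The cytosolic ribosomal proteins lie to the right of the line with a median of 1.72, and the cell cycle list to its left with a median of -0.59.

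Chaperones, which help proteins to fold, rose in 6 of 80 genes (7.5% against 2.25% of all genes) and fell in 1 (1.25% against 1.88%, median log2 change 0.70). Mitochondrial heat shock 70 kDa protein (*g358*) was at 481 and 610.0 CPM and then at 2010 and 2236 CPM, 3.89-fold higher (adjusted p = 1.65e-05). The other 5 that rose included 4 subunits of the T-complex, the cytosolic chaperonin that folds actin and tubulin. Its gamma subunit (*g17924*) went from 143 and 91.6 CPM to 551 and 553 CPM (adjusted p = 0.00262), its delta subunit (*g1884*) from 101 and 63.6 CPM to 347 and 483 CPM (adjusted p = 0.00569), and the zeta (*g14778*) and alpha (*g4663*) subunits also passed (log2 changes 1.75 and 2.01). The gene that fell, *g5200*, encodes dnaJ homolog subfamily C member 13, an endosomal protein in mammals, and went from 149.5 and 234 CPM to 0.143 and 2.65 CPM (adjusted p = 0.00112). Without stage-3 c1 none of the 6 that rose passed, and without any other library 1 did, and without stage-4 c2 the median of the list was -0.07.

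In the list of splicing factors, 4 of 109 rose (3.67% against 2.25% of all genes) and 1 fell (0.917% against 1.88%), with a median of 0.33. No call of the list held without stage-3 c1, stage-3 c2 or stage-4 c2. *g1657*, a heterogeneous nuclear ribonucleoprotein that binds RNA, was at 4703 and 5605 CPM and then at 10622 and 12472 CPM, 2.24-fold higher (log2 change 1.16, standard error 0.24, adjusted p = 0.000134). *g8701*, subunit 4 of splicing factor 3B, which acts at the branch site of introns, went from 332 and 206 CPM to 1032 and 877 CPM (adjusted p = 0.0027). *g1822*, the U4/U6 protein Prp3, fell from 489 and 352 CPM to 26.4 and 134 CPM (adjusted p = 0.00724).

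Of 123 cell cycle and DNA replication genes tested, 6 fell (4.88% against 1.88% of all genes) and none rose past the threshold, with a median log2 change of -0.59. In 40 of the 123 the log2 change was above 0, against 5211 of 10686 over all genes. Both stage-4 libraries were below both stage-3 libraries in 46 of the 123, against 20.2% of all genes. They were above both in 14, against 18.4% of all genes. Summed over the list, the level was 14360 and 12650 CPM at stage 3 and 7372 and 9083 CPM at stage 4. Cyclin E1 (*g7775*), which drives entry into S phase, was at 275 and 451 CPM and then at 64.8 and 73.3 CPM, 5.25-fold lower (log2 change -2.38, standard error 0.66, adjusted p = 0.0124). Cyclin B3 (*g14278*), a mitotic cyclin, was at 787 and 960.3 CPM and then at 372 and 234 CPM, 2.89-fold lower (log2 change -1.54, standard error 0.45, adjusted p = 0.0215). *g1671*, a phosphatase of the Cdc25 type that activates the mitotic kinase, went from 409.5 and 251 CPM to 88.9 and 63.5 CPM (adjusted p = 0.0338). These 3 genes act directly on cell cycle progression. The other 3 were cyclin-dependent kinase 8 (*g21134*), a kinase of the Mediator complex of transcription, which went from 373 and 424 CPM to 32.8 and 68.7 CPM (adjusted p = 0.00134), the kinetochore protein zw10 (*g19775*), which went from 135 and 139 CPM to 0 and 3.92 CPM (adjusted p = 0.0124), and condensin subunit 1 (*g11338*), which compacts chromosomes (adjusted p = 0.0484). The likelihood ratio test called none of the list, and the same was true without any 1 of the 4 libraries, where the median ranged from -1.79 to -0.12. DESeq2 called 7 lower and 5 higher.

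Histones fell in 2 of 20 genes (10% against 1.88% of all genes) and rose in none, although the median log2 change of the list was 0.30 (-0.45 without stage-4 c2). Histone H2B (*g17398*) was at 571 and 279 CPM and then at 39.3 and 77.7 CPM, 7.27-fold lower (adjusted p = 0.0012), and histone H3.1 (*g12364*) went from 129 and 164 CPM to 0 and 7.95 CPM (adjusted p = 0.0136). Both are core proteins of the nucleosome. The libraries were made from poly(A) RNA, and replication-type histone transcripts often lack a poly(A) tail, so that their full level is not measured. Chromatin regulators moved in both directions, with 5 of 103 higher (4.85% against 2.25% of all genes) and 2 lower (1.94% against 1.88%). Lysine-specific demethylase 3B (*g292*), which removes methyl groups from histone H3, was at 5.72 and 48.0 CPM and then at 419 and 244 CPM, 12.3-fold higher (adjusted p = 0.000224). The remodelling helicase Mi-2 (*g7368*) went from 322 and 527 CPM to 1206 and 1733 CPM (adjusted p = 0.000546). A gene named CHD7 (*g13893*), a helicase of the same class, went from 193 and 131 CPM to 660.1 and 846 CPM, and a second gene of that name (*g5568*) from 172 and 158 CPM to 714 and 482 CPM (adjusted p = 0.000657 and 0.0123). Of the 2 that fell, *g15051* encodes lysine-specific demethylase 5A (log2 change -1.80) and *g15485* a DNA methyltransferase (log2 change -2.85). In each of the 7 the libraries of the stages did not overlap, as in 435 of all 441 DEGs.

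Regulators of germline, small and maternal RNAs fell in 4 of 60 genes (6.67% against 1.88% of all genes) and rose in 3 (5% against 2.25%, median 0.02, and -0.26 with library sizes alone). *g12413*, cytoplasmic polyadenylation element-binding protein 1, which controls the poly(A) tails of stored maternal mRNAs in frogs and flies, was at 108 and 371 CPM and then at 0 and 6.68 CPM, 71.7-fold lower (log2 change -5.99, standard error 1.29, adjusted p = 0.000293). *g27048*, subunit 6 of the CCR4-NOT complex, which shortens poly(A) tails, went from 258 and 187 CPM to 0 and 20.4 CPM (adjusted p = 0.00234). *g12797*, argonaute-4-like, a small-RNA-binding protein, went from 297 and 167 CPM to 21.9 and 27.3 CPM (adjusted p = 0.0104). The last of those that fell was *g5662*, tudor domain-containing protein 7 (log2 change -1.73, adjusted p = 0.0191). Other argonaute proteins went up. *g11588*, argonaute-2-like, was at 922 and 1033 CPM and then at 1691 and 2944 CPM, 2.37-fold higher (adjusted p = 0.0107), and *g11104*, piwi-like protein 1, which silences transposons in germ cells, went from 3422 and 3003 CPM to 5486 and 6994 CPM (adjusted p = 0.0137). The Y-box factor *g18446*, an mRNA-binding protein, rose too (log2 change 1.53, adjusted p = 0.0215).

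Signalling genes rose in 5 of 64 cases (7.81% against 2.25% of all genes) and fell in 1 (1.56% against 1.88%), with a median log2 change of 0.73, which was 7.89 without stage-3 c1. Semaphorin-5A (*g26377*), a guidance cue for moving cells and axons, was at 16 and 0 CPM and then at 855 and 234 CPM (log2 change 5.95, standard error 0.85, adjusted p = 9.11e-10). It was higher in both stage-4 libraries, which themselves differed by a wide margin. Fibroblast growth factor receptor 4 (*g26565*) had no count in either stage-3 library and was at 245 and 134 CPM at stage 4, at least 652-fold higher (adjusted p = 0.000183). *g16926*, bone morphogenetic protein 4-like, a ligand of the pathway that patterns the dorsoventral axis, also had no count at stage 3 and stood at 179 and 95.3 CPM at stage 4, at least 471-fold higher (adjusted p = 0.0026). A Wnt-16-like ligand (*g11009*) went from 19.0 and 32.3 CPM to 266 and 148 CPM (adjusted p = 0.0175). Of 2 genes named patched domain-containing protein 3-like, *g6669* went from 14.4 and 0 CPM to 217 and 134 CPM (adjusted p = 0.00434), whereas *g10219* went from 126 and 153 CPM to no count (adjusted p = 0.00545). The pair shares a name but moved in opposite directions. Without stage-3 c1 or stage-4 c1 none of the 6 passed.

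Among 12 patterning genes studied in this spider, 2 rose (16.7% against 2.25% of all genes) and 2 fell (16.7% against 1.88%). *g16926* is given above. *g6985*, silk gland factor 1-like (*Pt-fkh*, a forkhead transcription factor of endoderm and mesoderm), had no count at stage 3 and was at 219.8 and 38.0 CPM at stage 4, at least 443-fold higher (adjusted p = 0.00465). *g14287*, a twist-related gene (a bHLH transcription factor of mesoderm in flies), was at 211 and 560.1 CPM and then at 127 and 3.11 CPM, 5.94-fold lower (log2 change -2.67, standard error 0.68, adjusted p = 0.00403). The stage-4 libraries differed greatly, and the upper of them was close to the lower stage-3 library. *g14287* is also a Group C gene, which the study chose for a high level in these same stage-3 c libraries. *g12202*, ZIC 4-like (*Pt-opa*, a zinc finger gene that acts in segmentation), was at 274 and 385 CPM and then at 52.6 and 46.3 CPM, 6.67-fold lower (log2 change -2.74, standard error 0.72, adjusted p = 0.00616). It is also the rim marker that passed, and it was at 273 CPM on average in stage-4 p cells. The other rim genes were low: *Pt-hh* (*g4322*, a hedgehog ligand) was at 9.06 and 0 CPM and then at 0.717 and 0.691 CPM, *Pt-lab* (*g7954*, a Hox gene) at 59.0 and 56.1 CPM and then at 28.7 and 23.7 CPM, and *Pt-otd* (*g9172*, a head gene) at 12.8 and 52.7 CPM and then at 0 (adjusted p from 0.461 to 0.805). *Pt-Delta* (*g25248*), a Notch ligand, was at 25.8 and 0 CPM and then at 41.7 and 90.1 CPM (adjusted p = 0.484). *Pt-sog* (*g23966*), an inhibitor of BMP ligands, was at 4.05 and 20.3 CPM and then at 0.287 and 123 CPM, and *Pt-BarH1* (*g8250*), *Pt-msx1* (*g15189*) and *Pt-prd2* (*g18397*), all homeobox genes, were at 60.8 CPM or less in the 4 libraries and did not pass.

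Group C, the 10 genes that the study chose for their high level in stage-3 c cells, was selected on the same stage-3 libraries, so that their counts here are not independent evidence of a direction. Of these, 2 rose (20% against 2.25% of all genes) and 1 fell (*g14287*, 10% against 1.88%). *g4238*, an Ets transcription factor needed for the cumulus to migrate, was at 968 and 1720 CPM and then at 2196 and 589.9 CPM (log2 change 0.05, standard error 0.35, adjusted p = 0.958). Its stage-4 libraries enclosed both stage-3 values, so that no change was detectable. *g16467*, orthopedia-like, a homeobox gene, was at 86.7 and 200.3 CPM and then at 72.5 and 36 CPM (adjusted p = 0.522). *g15167*, EF-hand domain-containing protein D2, a calcium-binding protein, was at 13.3 and 321 CPM and then at 944 and 501 CPM, 4.32-fold higher (log2 change 2.16, standard error 0.50, adjusted p = 0.00128). *g16893*, named after u-shaped, a cofactor of GATA proteins in flies, had 1 count in stage-3 c1, 161 CPM in c2 and no count at stage 4 (adjusted p = 0.0873). *g5118*, *g17735*, *g132* and *g3963*, all uncharacterized, did not pass (adjusted p from 0.134 to 0.982) and stood at 0.352, 16.5, 23.4 and 13.7 CPM in stage-3 c1 and at 182, 333, 241 and 125 CPM in c2. In these genes and in *g15167* and *g16893* the stage-3 libraries were far apart, with c2 much higher than c1. Of the 5 Group P genes chosen in the same way for p cells, 4 were tested and none passed in edgeR's quasi-likelihood test (2 higher at an unadjusted p under 0.05, and 2 higher in DESeq2). Of those, *g7720*, a subunit of the complex that activates small nuclear RNA genes, went from 1 and 0 counts to 57.2 and 32.6 CPM (adjusted p = 0.258). The 4 Group CP genes, among them *g26874* described below, were chosen from the same stage-3 libraries for a high level in c and p cells. Their direction here is thus not independent evidence either. Of these, 1 fell (25% against 1.88% of all genes) and none rose past the threshold. It was *g18041*, a gene model without a product, which went from 141 and 82.3 CPM to 0 and 7.03 CPM (adjusted p = 0.0470).

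GATA transcription factors specify endoderm in many animals. *g26874* (*fuchi nashi*), the GATA-like gene that germ-disc formation requires, was at 923 and 1537 CPM and then at 1553 and 754 CPM (log2 change -0.10, standard error 0.36, adjusted p = 0.907). The stages overlapped fully. *g8337* (*Pt-GATA5*) was at 4.58 and 39.2 CPM and then at 43.3 and 23.5 CPM, and *g26871* and *g26875* stayed at or below 10.8 CPM. The other 4 members had no count in the 4 libraries. None of the 4 tested genes had an unadjusted p under 0.05 in edgeR's quasi-likelihood test, and DESeq2 called none.

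The late endoderm genes, 8 genes expressed in internalized endoderm at late stage 5, are among the 10 top-ranked genes of the paper's stage-3 *fuchi* knockdown comparison. They rose in 5 cases (62.5% against 2.25% of all genes) and fell in none (median log2 change 2.42). *g12453*, uncharacterized, was at 0.0880 and 114 CPM and then at 1353 and 622 CPM (log2 change 4.20, standard error 0.56, adjusted p = 4.72e-11). *g27539*, a gene model without a product, went from 6.25 and 35.6 CPM to 167 and 209 CPM, 8.99-fold higher (adjusted p = 0.0160). *g1125*, uncharacterized, went from 36.9 and 46.2 CPM to 402 and 123 CPM (adjusted p = 0.0160). *g20850*, uncharacterized and also a Group C gene, went from 35.4 and 93.2 CPM to 413 and 166 CPM, and *g17950*, holotricin-3-like, from 3.43 and 218 CPM to 462 and 343 CPM (adjusted p = 0.0375 and 0.0316). In each of the 5 the stages did not overlap, as in 435 of all 441 DEGs. The other 3 did not pass: *g2114* was at 22.8 and 218 CPM and then at 336 and 96.1 CPM, *g26914* at 32.5 and 359 CPM and then at 208 and 164 CPM, and *g486*, named after a fatty acid receptor, had counts in stage-4 c2 only. The sum over the 8 genes was 137 and 1085 CPM at stage 3 and 3341 and 1751 CPM at stage 4, so that stage-3 c2 held far more of this signal than c1. *g12453*, *g17950* and *g20850* are also the abembryonic markers that rose. The likelihood ratio test called 1 of the 8, DESeq2 called 2 and none passed without stage-3 c1.

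In the cytoskeleton lists, actin and myosin genes rose in 3 of 104 (2.88%) and fell in 4 (3.85%), and microtubule genes rose in 2 of 130 (1.54%) and fell in 4 (3.08%), against 2.25% and 1.88% of all genes. Besides *g27982*, cofilin (*g25510*), which severs actin filaments, rose from 55.4 and 54.7 CPM to 253 and 338 CPM (adjusted p = 0.0160). *g16727*, myosin-9-like, went from 259.9 and 309 CPM to 3 and 1 counts (adjusted p = 1.15e-05). *g65*, kinesin light chain-like, a motor subunit, had no count at stage 3 and 135 and 137 CPM at stage 4, at least 468-fold higher (adjusted p = 0.00244). *g26557*, the microtubule-actin cross-linking factor 1, went from 578 and 673 CPM to 177 and 150.5 CPM, 3.82-fold lower (adjusted p = 0.00838). These genes showed no common direction. In the list of adhesion genes (3.12% higher, 1.56% lower), laminin alpha-1-like (*g16317*), a basement membrane protein, rose from 80.6 and 45.4 CPM to 407 and 293 CPM, 5.55-fold higher (adjusted p = 0.0080), cadherin-23 (*g13443*) rose, and talin-2 (*g16213*), which links integrins to actin, fell from 418 and 480.0 CPM to 92.8 and 79.3 CPM, 5.22-fold lower (adjusted p = 0.0047), out of 64 tested.

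Transporters fell in 5 of 118 genes (4.24% against 1.88% of all genes) and rose in 1 (0.847% against 2.25%). *g9963*, monocarboxylate transporter 12-like, was at 508 and 488 CPM and then at 18.1 and 12.4 CPM, 32.7-fold lower (log2 change -5.05, standard error 0.83, adjusted p = 2.77e-07). *g14902*, an ABC transporter of the G family, which carries lipids in other animals, went from 207 and 229 CPM to 0 and 3.80 CPM (adjusted p = 0.000412). *g3412*, solute carrier family 35 member F6, was the one that rose, from 0.0880 and 4.14 CPM to 167 and 116 CPM (adjusted p = 0.00465). Zinc finger proteins fell in 3 of 181 (1.66% against 1.88% of all genes) and rose in 1 (0.552% against 2.25%). Of 50 homeobox genes and 42 genes of glycolysis and central carbon metabolism, none passed in edgeR's quasi-likelihood test: at an unadjusted p under 0.05 there were 3 higher and 4 lower homeobox genes and 1 higher and 1 lower metabolic gene, and DESeq2 called 4 and 2 lower.

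Genes with almost no counts at one stage and a clear level at the other were counted without a test, and are called switched on or off for short. Between the 2 libraries of a stage, 36.1% (stage 3) and 28.7% (stage 4) of genes with at least 10 CPM in one had at most 3 counts in the other. A gene missing from both libraries of a stage need thus not have been silent. In c cells, 260 genes (2.43%) had at most 3 counts in both stage-3 libraries and at least 10 CPM in both stage-4 libraries, and 214 genes (2%) showed the reverse. Of each, 27 were DEGs. The highest of the genes switched on was *g8570*, uncharacterized, with no count at stage 3 and 711 and 291 CPM at stage 4, at least 1720-fold higher (adjusted p = 6.42e-11). It was followed by *g11342*, named after the urease accessory protein UreG, with 374 and 179.5 CPM at stage 4, at least 951-fold higher (adjusted p = 2.28e-06), and *g25447*, kynurenine formamidase-like, an enzyme of tryptophan breakdown, with 305 and 109.8 CPM, at least 712-fold higher (adjusted p = 8.27e-05). *g26565* and *g13314*, uncharacterized, with 204 and 123 CPM, were next. The highest of the genes switched off were *g3607*, *g9729*, *g23929*, *g9728* and *g27978*, all described above, 4 of them of the ABHD11 family. With a threshold of 20 CPM the counts were 113 on and 125 off, and with 1 library left out they ranged from 348 to 1044 on and from 320 to 933 off.

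Of 1748 uncharacterized genes tested, 49 fell (2.80% against 1.88% of all genes) and 26 rose (1.49% against 2.25%), shares near those of all genes, with a median log2 change of -0.35, which was 2.47 without stage-3 c1. *g9718*, on the same scaffold 1062 as the ABHD11 genes, was at 2235 and 1508 CPM and then at 81.0 and 10.0 CPM, 41.1-fold lower (log2 change -5.46, standard error 0.54, adjusted p = 7.38e-21). *g10659* went from 1390 and 1168 CPM to 0 and 9.56 CPM, 268-fold lower (adjusted p = 5.74e-20), and *g27438* from 1418 and 1489 CPM to 0 and 50.5 CPM, 57.6-fold lower (adjusted p = 1.84e-18). *g430*, a gene model without a product, went from 661 and 467 CPM to 0 and 18.4 CPM (adjusted p = 6.14e-09). These were abundant at stage 3 in both libraries. Among those that rose, *g20822* was at 264 and 472 CPM and then at 3822 and 1745 CPM, 7.56-fold higher (log2 change 2.92, standard error 0.37, adjusted p = 3.68e-12), and *g9243* went from 105 and 601 CPM to 2490 and 1160 CPM (adjusted p = 4.55e-07). In both, stage-4 c1 was the highest of the 4 libraries.

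Levels in the other groups of the series are given for the DEGs of c cells, as those groups differ in stage, region or mother. Each gene's mean log2(CPM + 1) in another group was placed nearer to the stage-3 or to the stage-4 level of c cells. For the 240 genes that rose, 16 (6.67%) were nearer the stage-4 level in stage-3 i cells, which came from a mother of their own, and 18 (7.5%) in stage-3 p cells, whose mother was that of the stage-3 c cells. The number was 163 (67.9%) in stage-4 p cells and 210 (87.5%) in early stage-5 c cells, which came from mother SN462. For the 201 genes that fell, 19 (9.45%) were nearer the stage-4 level in stage-3 i cells, 11 (5.47%) in stage-3 p cells, 176 (87.6%) in stage-4 p cells and 166 (82.6%) in early stage-5 c cells. In early stage-5 p cells the shares were 62.1% of the genes that rose and 80.6% of those that fell. Of the 1735 genes that were not called but had both stage-4 c libraries above, 25% were nearer the stage-4 level in stage-3 i cells, 25.5% in stage-3 p cells, 53.3% in stage-4 p cells, 77.2% in early stage-5 c cells and 65.5% in early stage-5 p cells. Of the 1960 with both below, the shares were 53%, 48.8%, 73.1%, 53.4% and 59%. DEGs had to lie far apart between the stages of c cells to be called, so that the shares of called and other genes are given as a description.

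**Figure D4:**
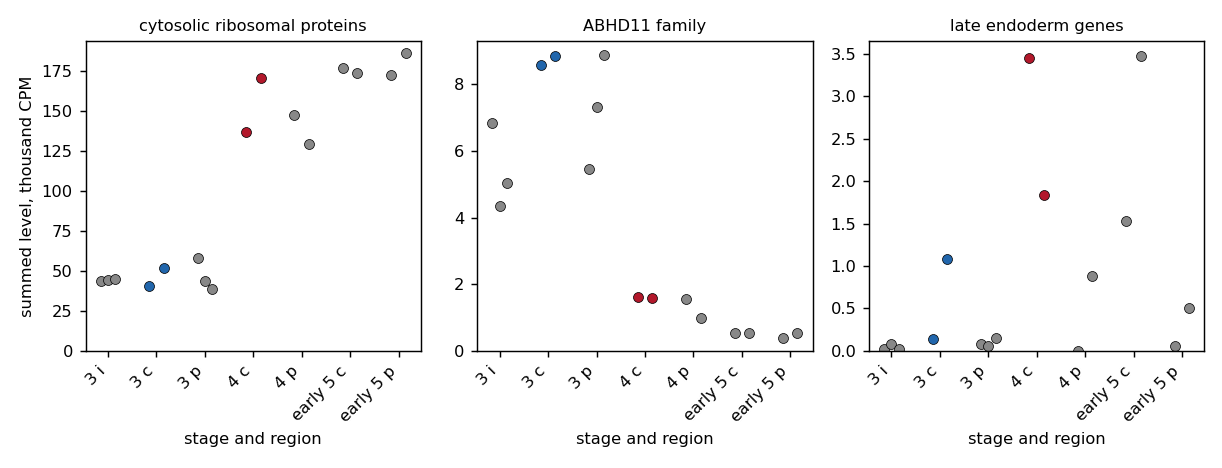
Summed level of the cytosolic ribosomal proteins, of the ABHD11 family and of the late endoderm genes in each of the 16 libraries, in units of 1000 CPM on the scale of all libraries, by stage and region (blue stage-3 c, red stage-4 c, grey other groups). Each point is 1 library. Ribosomal proteins were at 38510 to 58130 CPM in all stage-3 libraries and at 129600 CPM or more later, the ABHD11 family at 4351 CPM or more at stage 3 and at 1606 CPM or less later, and the late endoderm genes were highest in c cells from stage 4.

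For single groups the same levels were as follows. The sum of the ribosomal proteins was 43710 to 45110 CPM in stage-3 i cells, 38510 to 58130 CPM in stage-3 p cells, 147500 and 129600 CPM in stage-4 p cells and 177100 and 174000 CPM in early stage-5 c cells. The sum of the ABHD11 family was 4351 to 6853 CPM in stage-3 i cells and 1560 and 985 CPM in stage-4 p cells, and it fell no lower than 393 CPM at early stage 5, where *g25958* still stood at 489 CPM in c cells. Not every gene followed this course. *g20563*, the cytochrome c oxidase subunit 3-like gene, was at 254 CPM in stage-3 i cells, 1159 CPM in stage-3 p cells, 83.8 CPM in stage-4 p cells and 2462 CPM in early stage-5 c cells, so that both stage-4 groups, which share a mother, were the lowest. Of the genes switched on in c cells, 138 (53.1%) were at 10 CPM or more in both early stage-5 c libraries and 42 (16.2%) in both stage-4 p libraries. Of those switched off, 53 (24.8%) were at 10 CPM or more in all 3 stage-3 i libraries, and 125 (58.4%) had at most 3 counts in both stage-4 p libraries.

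The change in p cells between the same mothers and stages had the same sign for 217 of the 240 genes that rose (90.4%, median log2 change 1.58) and for 196 of the 201 that fell (97.5%, median -3.01), against 54.4% of the genes that were not called. The difference between the change in c cells and that in p cells was tested as an interaction over 9 libraries, in which each arm holds the same pair of mothers. Of 11794 genes tested, 7 passed (0.0594%), and 271 had an unadjusted p under 0.05. *g27330*, uncharacterized, was at 250 and 512 CPM in stage-3 c cells and at 1561 and 532.5 CPM in stage-4 c cells on the scale of these libraries, while p cells went from 227, 287 and 261 CPM to 0.348 and 41.9 CPM (log2 difference of the changes 4.87, standard error 0.93, adjusted p = 0.00187). Thus c cells kept or raised a transcript that p cells lost. *g7019*, uro-adherence factor A, a name given by similarity to a bacterial surface protein, was at 867 and 457 CPM and then at 804 and 392.5 CPM in c cells, and went from 814, 896 and 724 CPM to 84.1 and 27.4 CPM in p cells (difference 3.80, standard error 0.78, adjusted p = 0.00406). In c cells its stages overlapped.

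Heat shock protein 83 (*g876*), the arthropod Hsp90 chaperone, was at 1187 and 2071 CPM and then at 1357 and 2966 CPM in c cells, and went from 725, 543.5 and 706 CPM to 1934 and 5144 CPM in p cells (difference -2.02, standard error 0.46, adjusted p = 0.0289). In c cells its stages overlapped, and in p cells they did not. *g4763*, uncharacterized, fell from 864 and 1532 CPM to 45.4 and 13.8 CPM in c cells, and p cells were at 754, 149 and 119 CPM and then at 306 and 93.4 CPM (difference -4.56, standard error 0.92, adjusted p = 0.00406). *g3783*, uncharacterized, behaved alike, with a difference of -2.76 (standard error 0.65, adjusted p = 0.0375). *g17422* and *g19817*, gene models without a product, rose in c cells (from 148 and 365 to 2105 and 1326 CPM, and from 538 and 1348 to 3719 and 3090 CPM) and had log2 changes of 0.19 and -0.22 in p cells, with differences of 2.63 and 2.14 (adjusted p = 0.0375 and 0.0289). Semaphorin-5A had a larger difference of 6.38, but its adjusted p of 0.0658 missed the threshold. These calls rested on few libraries: without stage-4 c1 none of the genes passed, 3 to 5 genes passed without stage-3 c2, stage-3 p2, stage-3 p3 or either stage-4 p library, 13 without stage-3 p1, and the likelihood ratio test called 8 other genes.

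**Figure D5:**
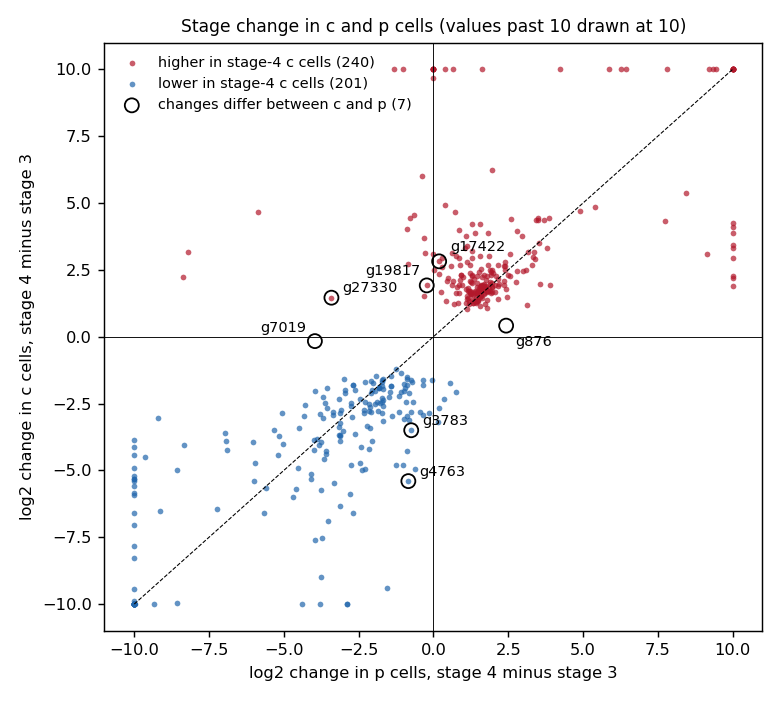
Log2 change from stage 3 to stage 4 in p cells (x axis) and c cells (y axis) for the 240 genes higher (red) and the 201 lower (blue) in stage-4 c cells, with values past 10 drawn at 10. Open circles mark the 7 genes whose change differed between c and p cells in the interaction test, and the dashed line marks equal change. Most red points lie in the upper right and most blue points in the lower left.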

How the data were processed

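The authors sequenced poly(A) RNA of pooled cells after PCR amplification on a MiSeq, trimmed the reads with CLC Genomics Workbench, aligned them to Ptep_1.0 with BLAT and kept unique alignments. Counting used htseq-count (HTSeq 0.5.4p5 in the submitters' processing notes) and the AUGUSTUS annotation aug3.1. The deposited counts are raw counts per gene, without normalization. Gene products and coordinates were taken from the same file. Rows that name no gene held no counts in the 4 libraries. All 16 count columns matched a sample by name. A deposited RPKM table was not used here.

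Stage 4 was set against stage 3 with edgeR's quasi-likelihood test (edgeR 4.0.16 under R 4.3.3, with limma 3.58.1) on TMM-normalized libraries, for genes reaching 1 CPM in any library entered. P-values were adjusted by Benjamini-Hochberg over all genes fitted, the threshold was 0.05 and the prior count 0.125. Levels are TMM-scaled CPM over the 4 libraries unless another scale is named. The standard error is the absolute log2 change divided by the square root of F. Gene groups are lists of products matched by name, or lists of gene IDs from the study. The genes compared and the lists were chosen with earlier results of these data known. Genes named are the members of the ID lists, up to 12 with a product and 6 without per direction with the lowest p and no overlap, up to 4 of each product list, up to 5 per direction of the interaction test and of the genes switched on or off. Other members of small counts, *g9723*, *g9725*, *g9726*, *g25958*, *g5875*, *g5876*, *g5878*, *g1635*, *g13965*, *g4780* to *g4782* and further called list members, were named after their values were seen.

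Alternatives were the likelihood ratio test, DESeq2 1.42.0, the earlier form of the quasi-likelihood fit, other size factors, library sizes alone, no filter, at least 10 counts in 2 libraries, a prior count of 2, the replicate number as a block, all 16 libraries in 1 fit and each library left out. Normalization without ribosomal protein genes was an alternative chosen after seeing the data.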

Additional observations from a re-analysis of the deposited data

Results flagged for a closer look

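In 7 genes the change from stage 3 to stage 4 differed between c cells and p cells by edgeR's quasi-likelihood test of the interaction (11794 genes tested, Benjamini-Hochberg adjustment), with the same mothers in both arms. The log2 change in c cells minus that in p cells was 4.87 for *g27330*, -4.56 for *g4763*, 3.80 for *g7019*, 2.14 for *g19817*, -2.02 for *g876*, -2.76 for *g3783* and 2.63 for *g17422*. In c cells *g27330*, *g19817* and *g17422* rose in the comparison of stages, *g4763* and *g3783* fell, and *g7019* and *g876* did not pass (log2 changes -0.24 and 0.34 over the 4 c libraries). All 7 kept their side of the threshold with other size factors and filters, 3 did so in DESeq2 and none in the likelihood ratio test or without stage-4 c1.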

How the results depend on the processing

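The 441 DEGs (240 higher, 201 lower) became 145 (58 and 87) in the likelihood ratio test, 999 (488 and 511) in DESeq2 and 29 to 118 with 1 library left out (2 to 75 higher, 27 to 70 lower), where the lone library is assumed to vary like the others. At least 10 counts in 2 libraries gave 132 lower genes. The earlier quasi-likelihood fit, other size factors, library sizes alone, no filter, a prior count of 2, normalization without ribosomal protein genes and all 16 libraries in 1 fit stayed within 1.5 times 441. Replicate numbers did not pair the libraries (correlation of deviations from the group means -0.0227), and with the replicate block 37 genes passed, 13 higher and 24 lower. The 7 interaction genes became 271 (125 and 146) in DESeq2, 23 (13 and 10) in the earlier fit and 0 to 13 with a library left out (0 to 6 higher, 0 to 7 lower). The 260 genes switched on and 214 switched off became 113 and 125 at 20 CPM, and 348 to 1044 and 320 to 933 with a library left out, which relaxes the rule for that stage. Of 99 named DEGs, 42 passed in the likelihood ratio test, 82 in DESeq2, 31 with the block, and 23, 53, 44 and 49 without stage-3 c1, stage-3 c2, stage-4 c1 and stage-4 c2, and none changed sign. The 17 that passed in each of the 15 alternatives run were *g10659*, *g18848*, *g20563*, *g23929*, *g27978*, *g3232*, *g3607*, *g3783*, *g4763*, *g4779*, *g6760*, *g8570*, *g9718*, *g9727*, *g9728*, *g9729* and *g9963*. The causes of these shifts were not tested. None of the 3707 genes under a mean of 10 CPM passed in edgeR's quasi-likelihood test, and calls at that level in the other fits were not counted.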

Other observations

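Called genes that stood next to each other on a scaffold of Ptep_1.0 and moved in the same direction formed 10 runs, 7 of genes that fell and 3 of genes that rose. On scaffold 827 the run held *g7672*, protein lifeguard 1, a membrane protein that inhibits cell death in mammals, which was at 229 and 201 CPM at stage 3 and at 762 and 507 CPM at stage 4 (adjusted p = 0.0401 in edgeR's quasi-likelihood test), *g7673*, subunit A of translation initiation factor 3, and *g7674*, initiation factor 5. On scaffold 1412 it held *g12002* and *g12003*, both annotated as dynamin-1, a GTPase of endocytosis. The first went from 249 and 253 CPM to 19.9 and 9.79 CPM and the second from 206 and 167 CPM to 0 and 12.1 CPM (adjusted p = 0.00153 and 0.00418). Whether such neighbours are parts of 1 transcript was not tested.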
